A study of Mus musculus with 12 samples.

Results

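A set of 9 genes of clotting and clot removal was followed in isolated glomeruli, the capillary tufts that filter blood in the kidney, of mice with and without anti-GBM glomerulonephritis (anti-GBM GN). They were the fibrinogen chains Fga, Fgb and Fgg, the clotting factors F3 and F8, the thrombin receptor Thbd and the fibrinolysis genes Plat, Plau and Plaur. A probe set was taken for a gene where the platform annotation gave it that symbol and no other, and where a gene had several, the one with the highest mean over all arrays was used. All 9 were found among 18193 genes named in this way, and all 9 were among the 11920 genes with a signal above the table median on 3 or more arrays, which were the ones tested.

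The study comprised 12 arrays, 1 per mouse, in 4 groups of 3: 129S2SvPAs anti-GBM GN, 129S2SvPAs control, C57BL6J anti-GBM GN and C57BL6J control. All mice were females of 8 to 10 weeks from Charles River, and glomeruli were isolated with sieves of 100 and 45 µm. In the model, nephrotoxic serum, which carries antibodies against the glomerular basement membrane, was given on days 0, 1 and 2 and glomeruli were taken on day 4. The labels carry the same protocol text for the controls, so what the control mice received is not stated, and the titles and the treatment label separate the groups. The values are log2 probe set signals, and a difference of 1 is a doubling of signal. Levels of different probe sets were not set against each other.

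Clotting starts when tissue factor (F3) meets plasma factor VII, and the cascade ends in thrombin, which cuts fibrinogen, a protein built of alpha, beta and gamma chains, into fibrin. Factor VIII (F8) is a cofactor that amplifies thrombin formation, while thrombomodulin (Thbd), on endothelial cells, binds thrombin and turns it towards activation of the anticoagulant protein C. Fibrin is removed by plasmin, made from plasminogen by tissue plasminogen activator (Plat) and urokinase (Plau), the second of which binds the receptor Plaur on cells. Fibrin in glomeruli is a known feature of anti-GBM disease.

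The 3 fibrinogen genes lie next to each other on mouse chromosome 3, in the order Fgg, Fga and Fgb in the RefSeq gene table. The 250 bases before the start of each are shown because all 3 chains rose in these arrays and because interleukin 6 is known to induce the fibrinogen genes in liver cells. They were taken from the RefSeq promoter table (GRCm38.p6) and read 5′ to 3′ on the strand of the gene. The windows are chr3:83025903-83026152 (plus strand) for Fga, chr3:83049864-83050113 (minus strand) for Fgb and chr3:83007474-83007723 (plus strand) for Fgg. Capitals mark matches to TTCNNNGAA, the STAT motif, and to CTGGGAA, the type II interleukin 6 response element.
Fga: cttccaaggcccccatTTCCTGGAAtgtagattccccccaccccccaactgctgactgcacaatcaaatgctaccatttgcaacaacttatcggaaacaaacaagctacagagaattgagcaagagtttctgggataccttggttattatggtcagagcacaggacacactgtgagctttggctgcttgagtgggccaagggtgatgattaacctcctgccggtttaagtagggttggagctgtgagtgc
Fgb: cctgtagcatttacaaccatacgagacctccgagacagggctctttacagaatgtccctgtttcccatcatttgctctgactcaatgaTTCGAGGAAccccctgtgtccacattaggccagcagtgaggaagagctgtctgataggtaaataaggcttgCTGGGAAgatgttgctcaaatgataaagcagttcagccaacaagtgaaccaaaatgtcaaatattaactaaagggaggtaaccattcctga
Fgg: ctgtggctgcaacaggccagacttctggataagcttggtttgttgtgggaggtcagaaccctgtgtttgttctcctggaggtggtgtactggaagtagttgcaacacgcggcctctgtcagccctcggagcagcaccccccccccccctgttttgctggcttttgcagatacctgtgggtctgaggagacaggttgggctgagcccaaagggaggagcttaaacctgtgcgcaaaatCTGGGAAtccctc
The STAT motif was found in Fga and Fgb and the interleukin 6 element in Fgb and Fgg, with both strands searched. In the 32851 promoters of the table, windows of the same length held the STAT motif in 7.02% and the interleukin 6 element in 9.1%. The table held 6 of the 9 genes, without Thbd, Plat and Plau. Of these 6, TGANTCA (AP-1) was found in Fgb, F3 and Plaur, against 6.75% of all promoters, and the NF-kB motif in Fgg, F3, F8 and Plaur, against 45.8%. The 4 motifs were searched one by one, matches of different motifs may overlap, and a match describes letters in a window and not a bound site.

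Array medians lay between 2.99 and 3.06, and arrays of the same group correlated at r = 0.973 to 0.994 over the 11920 genes tested. The first replicate of the 129S2SvPAs mice with anti-GBM GN stood apart, with r = 0.974 and 0.973 to the others of its group against 0.994 between those. Of 6 podocyte markers tested, 2 rose (Podxl by 1.18 and Synpo by 1.06) and 1 fell (Nphs1, at -1.68) in 129S2SvPAs mice with anti-GBM GN. In C57BL6J mice none was called by limma, with 0 higher and 1 lower at an unadjusted p under 0.05. Tubule markers were also present, among which Slc34a1 read 11.85 to 12.90 and Umod 13.43 to 13.94 on all arrays, so the preparations hold RNA of more than glomeruli. The mean of 14 proximal tubule markers was 11.04 to 11.26 in 129S2SvPAs anti-GBM GN against 11.75 to 11.85 in 129S2SvPAs controls, and 11.32 to 11.73 in C57BL6J anti-GBM GN against 11.60 to 11.95 in C57BL6J controls. In such bulk samples, fewer cells of a type and less RNA per cell cannot be told apart. The labels give no array or scan dates, so no batch could be examined.

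In 129S2SvPAs mice, 5 of the 9 genes rose and 1 fell with anti-GBM GN at a limma adjusted p under 0.05, where 10.6% of all genes tested rose and 9.77% fell (20.3% in either direction). In C57BL6J mice 5 rose and 2 fell, where 4.78% of all genes rose and 2.31% fell (7.09% in either direction). The genes that rose were Fga, Fgb, Fgg, Thbd and Plaur in both strains. Plau fell in both strains, F8 fell in C57BL6J mice, and F3 and Plat passed in neither strain. In 129S2SvPAs mice 6 genes were higher and 2 lower without overlap of arrays, against 16.4% and 16.1% of all genes (32.5% in either direction). In C57BL6J mice 5 were higher and 2 lower in this way, against 13.2% and 16% (29.1% in either direction). The median difference of the 9 genes was 1.92 in 129S2SvPAs and 1.33 in C57BL6J mice, against 0.00 and -0.03 over all genes tested. The 9 genes were chosen with earlier results of these data known, so these counts and medians only describe them.

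**Figure D1:**
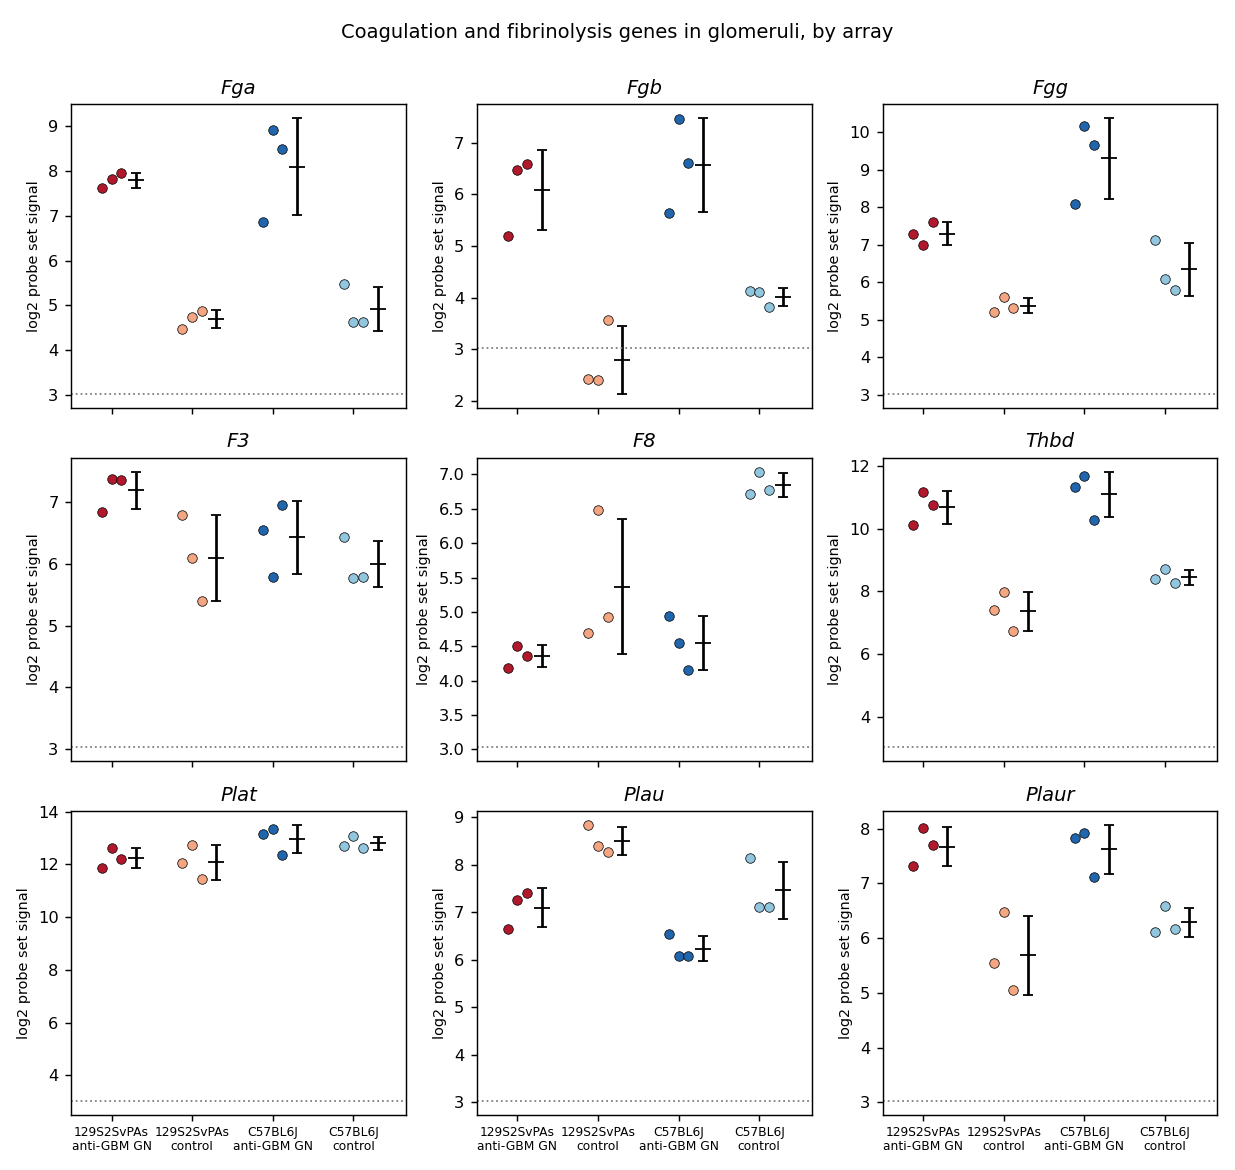
Log2 probe set signal (y axis, scaled separately for each gene) of the 9 genes in the 4 groups (x axis), with a point per array, a bar for the group mean and its SD (n = 3) to the right of the points, and a dotted line at the table median, 3.03. Fga, Fgb, Fgg, Thbd and Plaur sit higher on all 3 anti-GBM GN arrays than on the controls of the same strain, and Plau and F8 sit lower.

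Fga, the fibrinogen alpha chain (1424279_at), read 7.61, 7.82 and 7.94 on the 129S2SvPAs anti-GBM GN arrays against 4.47, 4.74 and 4.88 on the 129S2SvPAs controls. It read 6.86, 8.91 and 8.49 in C57BL6J anti-GBM GN against 5.48, 4.64 and 4.64 in C57BL6J controls. Every array with anti-GBM GN lay above every control of its strain, and the C57BL6J anti-GBM GN arrays spread the most. The difference was 3.09 (SE 0.44), or 8.53-fold, in 129S2SvPAs mice with a limma adjusted p of 0.000694. It was 3.17 (SE 0.44), or 8.98-fold, in C57BL6J mice with an adjusted p of 0.00155. The strains' responses differed by -0.07 with a 95% interval of -1.44 to 1.29, and Fga ranked 41 of 6008 genes by rise in 129S2SvPAs and 25 of 5279 in C57BL6J mice.

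Fgb, the beta chain (1428079_at), lay below the table median on 2 of the 3 129S2SvPAs controls. It read 5.19, 6.46 and 6.58 in 129S2SvPAs anti-GBM GN against 2.42, 2.41 and 3.56 in 129S2SvPAs controls, and 5.63, 7.45 and 6.60 in C57BL6J anti-GBM GN against 4.13, 4.10 and 3.81 in C57BL6J controls. No array overlapped between treatment and control within a strain. The rise was 3.28 (SE 0.49), or 9.71-fold, in 129S2SvPAs mice (limma adjusted p = 0.00102) and 2.55 (SE 0.49), or 5.84-fold, in C57BL6J mice (adjusted p = 0.0106). Values near the floor of the table understate a difference, which touches the first of these. The strains' responses differed by 0.73 with a 95% interval of -0.80 to 2.27.

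Fgg, the gamma chain (1416025_at), read 7.29, 7.01 and 7.61 in 129S2SvPAs anti-GBM GN against 5.21, 5.61 and 5.33 in 129S2SvPAs controls. It read 8.10, 10.16 and 9.65 in C57BL6J anti-GBM GN against 7.14, 6.10 and 5.81 in C57BL6J controls. Treated and control arrays did not overlap in either strain, and the 129S2SvPAs arrays lay below those of C57BL6J in both states. The rise was 1.92 (SE 0.48), or 3.78-fold, in 129S2SvPAs mice (limma adjusted p = 0.016) and 2.95 (SE 0.48), or 7.75-fold, in C57BL6J mice (adjusted p = 0.00383). The first of these passed 0.05 no longer without 129S2SvPAs anti-GBM GN replicate 3 (adjusted p = 0.0553) or 129S2SvPAs control replicate 1 (0.0522). The responses differed by -1.03 with a 95% interval of -2.52 to 0.46 (adjusted p = 0.661).

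Among mice with anti-GBM GN, Fgg was the only one of the 9 genes that differed between strains at an adjusted p under 0.05, where 4.89% of all genes were lower and 3.49% higher in 129S2SvPAs (8.38% in either direction). Without overlap of arrays 1 of the 9 (Plau) was higher and 1 (Fgg) lower, against 15.3% and 12.6% of all genes (27.9% in either direction). Its difference, 129S2SvPAs minus C57BL6J, was -2.00 (SE 0.48, limma adjusted p = 0.0263), a level lower by 4.00-fold. The call was lost with no filter (adjusted p = 0.0699) and with a fit of these groups alone (0.0901). It was also lost without any one of the 3 129S2SvPAs anti-GBM GN arrays, or without C57BL6J anti-GBM GN replicate 2 or 3, with adjusted p-values of 0.052 to 0.0995. In controls the same difference was -0.97 with an adjusted p of 0.269.

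Fibrinogen is made mainly in liver, and platelets carry it, so markers of both were measured on the same arrays. Of 14 hepatocyte markers, 13 had a named probe set and 5 were at or below the table median on all arrays. Their mean was 3.53 to 3.70 in 129S2SvPAs anti-GBM GN against 3.80 to 3.86 in 129S2SvPAs controls, and 4.24 to 4.33 in C57BL6J anti-GBM GN against 4.26 to 4.33 in C57BL6J controls. Of 6 tested, none rose in either strain at an adjusted p under 0.05 by limma (0 at an unadjusted p under 0.05), 2 fell in 129S2SvPAs and 1 fell in C57BL6J mice. Alb, albumin, averaged 3.55 ± 0.19 in 129S2SvPAs anti-GBM GN and 5.22 ± 0.31 in 129S2SvPAs controls, 5.73 ± 0.30 in C57BL6J anti-GBM GN and 6.02 ± 0.21 in C57BL6J controls (SD, n = 3 each). Over all arrays Ttr read 10.7 to 12.84 and Apob 6.41 to 10.57, while Apoa1 read 2.81 to 3.44. Ttr differed by -1.02 (limma adjusted p = 0.0256) in 129S2SvPAs and by 0.37 (adjusted p = 0.51) in C57BL6J mice. The mean of the list thus mixes genes of high signal with genes near the floor.

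Some platelet markers rose with anti-GBM GN. Of 11 listed, 9 had a named probe set, 2 were at or below the table median on all arrays, and of 6 tested 2 rose in 129S2SvPAs (Pf4 and Ppbp) and 4 in C57BL6J mice (also Gp9 and Tubb1). Of all genes tested, 10.6% rose in 129S2SvPAs and 4.78% in C57BL6J mice. Gp9 exceeded the table median on 3 arrays only, those of C57BL6J anti-GBM GN (mean 3.56). It was therefore tested only through the group where it is high, and its call there is not separate support. Ppbp exceeded the median on 7 arrays, with control means of 2.02 in 129S2SvPAs and 3.05 in C57BL6J mice. It too passed the filter only through the groups where it is high, so its calls are not separate support. Itga2b and Gp1bb passed in neither strain. The mean of the 9 was 3.56 to 3.87 in 129S2SvPAs anti-GBM GN against 2.72 to 2.73 in 129S2SvPAs controls, and 4.08 to 4.75 in C57BL6J anti-GBM GN against 2.80 to 3.22 in C57BL6J controls. Pf4, platelet factor 4, averaged 7.73 in 129S2SvPAs anti-GBM GN against 2.87 in 129S2SvPAs controls, and 8.45 in C57BL6J anti-GBM GN against 4.14 in C57BL6J controls. Their part in the fibrinogen rise was not tested.

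F3, tissue factor, the starter of the cascade (1417408_at), did not pass the test in either strain. It read 6.84, 7.37 and 7.35 in 129S2SvPAs anti-GBM GN against 6.79, 6.09 and 5.40 in 129S2SvPAs controls, and 6.54, 5.78 and 6.95 in C57BL6J anti-GBM GN against 6.43, 5.77 and 5.79 in C57BL6J controls. The 129S2SvPAs arrays did not overlap, though the highest control came within 0.05 of the lowest treated array, and the C57BL6J arrays did. The difference was 1.09 (95% interval 0.27 to 1.92, limma adjusted p = 0.0627) in 129S2SvPAs and 0.43 (-0.40 to 1.25, adjusted p = 0.587) in C57BL6J mice. It passed in 129S2SvPAs mice without 129S2SvPAs control replicate 1, at 1.44 with an adjusted p of 0.0241, without C57BL6J anti-GBM GN replicate 2 (0.049), with array weights (0.0229) and with the stricter filter (0.0404).

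F8, coagulation factor VIII (1449558_at), was called lower with anti-GBM GN in C57BL6J mice only. It read 4.19, 4.51 and 4.36 in 129S2SvPAs anti-GBM GN against 4.69, 6.49 and 4.92 in 129S2SvPAs controls, and 4.94, 4.55 and 4.16 in C57BL6J anti-GBM GN against 6.71, 7.04 and 6.78 in C57BL6J controls. All treated arrays lay below the controls of their strain, and 1 of the 3 129S2SvPAs controls stood well above the other two. The fall passed the test in C57BL6J mice, at -2.29 (SE 0.39, limma adjusted p = 0.00513) or 4.90-fold lower, the rank 6 of 6572 genes with a lower value there. In 129S2SvPAs mice the difference was -1.01 (95% interval -1.87 to -0.15, adjusted p = 0.0942), -0.45 without control replicate 2, and -1.35 (adjusted p = 0.0419) without control replicate 1. With array weights it also passed, at an adjusted p of 0.0496.

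The F8 responses of the strains differed by 1.28 with a 95% interval of 0.06 to 2.50, an unadjusted p of 0.041 and a limma adjusted p of 0.438, so the difference was not called. Among the 9 genes it was the only one with an unadjusted p under 0.05 for a difference of responses, where 10.9% of all genes had one. At an adjusted p under 0.05 no member and 0.562% of all genes were called (0.268% positive and 0.294% negative). In controls, F8 was the only one of the 9 called between strains, where 5.11% of all genes were lower and 3.32% higher in 129S2SvPAs (8.43% in either direction). Without overlap of arrays 1 of the 9 (Plau) was higher and 4 (Fgb, Fgg, F8 and Thbd) were lower, against 17.3% and 14.3% of all genes (31.6% in either direction). The difference, 129S2SvPAs minus C57BL6J, was -1.48 (SE 0.39, adjusted p = 0.0413), or 2.78-fold lower, and the call was lost when any of 9 of the 12 arrays was left out (adjusted p up to 0.15). It was also lost with no filter (0.0899), with a fit of the controls alone (0.138) and with the tubule covariate (0.0702). Among mice with anti-GBM GN the difference was -0.20.

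Thbd, thrombomodulin (1448529_at), rose in both strains. It read 10.13, 11.17 and 10.75 in 129S2SvPAs anti-GBM GN against 7.41, 7.97 and 6.73 in 129S2SvPAs controls, and 11.32, 11.67 and 10.28 in C57BL6J anti-GBM GN against 8.38, 8.72 and 8.26 in C57BL6J controls. Treated and control arrays were far apart in both strains, and the 129S2SvPAs controls lay below all C57BL6J controls. The rise was 3.31 (SE 0.40), or 9.94-fold, in 129S2SvPAs mice (limma adjusted p = 0.000272) and 2.64 (SE 0.40), or 6.22-fold, in C57BL6J mice (adjusted p = 0.0028). It ranked 26 of 6008 genes by rise in 129S2SvPAs and 55 of 5279 in C57BL6J mice. The responses differed by 0.68 with a 95% interval of -0.58 to 1.93. Between the control strains Thbd differed by -1.08 (SE 0.40, adjusted p = 0.135), and by the same amount with an adjusted p of 0.0414 with the replicate number as a block.

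Plat, tissue plasminogen activator (1415806_at), showed no difference that passed the test. It read 11.86, 12.61 and 12.22 in 129S2SvPAs anti-GBM GN against 12.04, 12.75 and 11.44 in 129S2SvPAs controls, and 13.16, 13.35 and 12.34 in C57BL6J anti-GBM GN against 12.68, 13.09 and 12.63 in C57BL6J controls. The groups overlapped in both strains. The difference was 0.15 in each strain (SE 0.35), with a 95% interval of -0.62 to 0.92 and limma adjusted p-values of 0.833 in 129S2SvPAs and 0.881 in C57BL6J mice. The intervals reach changes of nearly a doubling upward and of somewhat less downward. A second probe set (1458553_at) read 4.41, 3.78 and 3.31 in 129S2SvPAs anti-GBM GN against 4.32, 5.21 and 4.68 in 129S2SvPAs controls, and 4.97, 4.34 and 4.58 in C57BL6J anti-GBM GN against 4.82, 6.31 and 5.01 in C57BL6J controls. It overlapped between treatment and control in both strains, and its group means ran the other way from the first.

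Plau, urokinase (1422139_at), fell in both strains. It read 6.64, 7.25 and 7.40 in 129S2SvPAs anti-GBM GN against 8.83, 8.39 and 8.27 in 129S2SvPAs controls, and 6.53, 6.08 and 6.07 in C57BL6J anti-GBM GN against 8.15, 7.11 and 7.11 in C57BL6J controls. The treated arrays lay below the controls in both strains, and the 129S2SvPAs arrays lay above those of C57BL6J in both states. The difference was -1.40 (SE 0.30), or 2.64-fold lower, in 129S2SvPAs mice (limma adjusted p = 0.00784) and -1.23 (SE 0.30), or 2.35-fold lower, in C57BL6J mice (adjusted p = 0.034). The second call was lost with no filter (adjusted p = 0.0796), with the mean of both probe sets (0.0532), with a fit of the C57BL6J groups alone (0.0603) or without any C57BL6J anti-GBM GN array or C57BL6J control replicate 1 (adjusted p up to 0.136).

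The strains' Plau responses differed by -0.17 with a 95% interval of -1.11 to 0.77. The strain difference was 0.87 (adjusted p = 0.115) among mice with anti-GBM GN and 1.04 (adjusted p = 0.06) among controls. Without C57BL6J control replicate 1 both passed, at an adjusted p of 0.0462 with anti-GBM GN and, with a difference of 1.39, of 0.0113 among controls. Without 129S2SvPAs anti-GBM GN replicate 1 the control difference also passed (adjusted p = 0.0416). A second probe set (1422138_at) read 2.83, 5.40 and 5.40 in 129S2SvPAs anti-GBM GN against 6.96, 5.86 and 5.35 in 129S2SvPAs controls, and 3.19, 3.75 and 3.80 in C57BL6J anti-GBM GN against 5.18, 5.55 and 5.20 in C57BL6J controls. It was lower on every treated C57BL6J array, and overlapped in 129S2SvPAs mice.

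Plaur, the urokinase receptor (1452521_a_at), rose in both strains. It read 7.31, 8.01 and 7.70 in 129S2SvPAs anti-GBM GN against 5.54, 6.47 and 5.05 in 129S2SvPAs controls, and 7.83, 7.92 and 7.11 in C57BL6J anti-GBM GN against 6.12, 6.59 and 6.16 in C57BL6J controls. Every treated array lay above every control of its strain. The rise was 1.99 (SE 0.35), or 3.96-fold, in 129S2SvPAs mice (limma adjusted p = 0.00246) and 1.33 (SE 0.35), or 2.51-fold, in C57BL6J mice (adjusted p = 0.0435), and the responses differed by 0.66 (95% interval -0.42 to 1.74). Macrophages and neutrophils are known to carry this receptor. The mean of 10 macrophage markers was 4.86 to 4.92 in 129S2SvPAs anti-GBM GN against 4.15 to 4.94 in 129S2SvPAs controls, and 4.95 to 5.72 in C57BL6J anti-GBM GN against 4.67 to 5.16 in C57BL6J controls, and 1 of 8 tested rose in each strain. The one that rose was Cd14 in both, named after its values were seen, which averaged 8.86 in 129S2SvPAs anti-GBM GN against 4.70 in 129S2SvPAs controls, and 6.65 in C57BL6J anti-GBM GN against 4.83 in C57BL6J controls. Adgre1 stayed between 3.02 and 3.51 on all arrays, near the table median of 3.03, so it says little. The other markers tested were not called in either strain. In 129S2SvPAs mice Lyz2, Ptprc and Csf1r differed by -1.36, -0.83 and -0.64, and Cd68, Mrc1 and C1qb by 0.04, 0.73 and 0.77. In C57BL6J mice the same 6 differed by 0.78, 0.04, 0.60, 0.98, -0.02 and 0.41, in that order. The mean of 6 neutrophil markers, 4 of them at or below the table median on all arrays, was 3.18 to 3.58 in 129S2SvPAs anti-GBM GN against 2.92 to 3.01 in 129S2SvPAs controls, and 3.40 to 4.08 in C57BL6J anti-GBM GN against 3.40 to 4.04 in C57BL6J controls. These means did not overlap in 129S2SvPAs mice, where S100a9 differed by 1.64 (limma adjusted p = 0.0597) and S100a8 by 1.02 (adjusted p = 0.182). In C57BL6J mice S100a9 differed by -0.14 and S100a8 by -0.04. The part of these cells in the Plaur rise was not tested. The C57BL6J call lies close to the threshold and was lost with no filter on dim probe sets (adjusted p = 0.101). It was also lost without C57BL6J anti-GBM GN replicate 1 or 2, any C57BL6J control, 129S2SvPAs anti-GBM GN replicate 2 or 3 or 129S2SvPAs control replicate 1, with adjusted p-values of 0.0521 to 0.179.

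**Figure D2:**
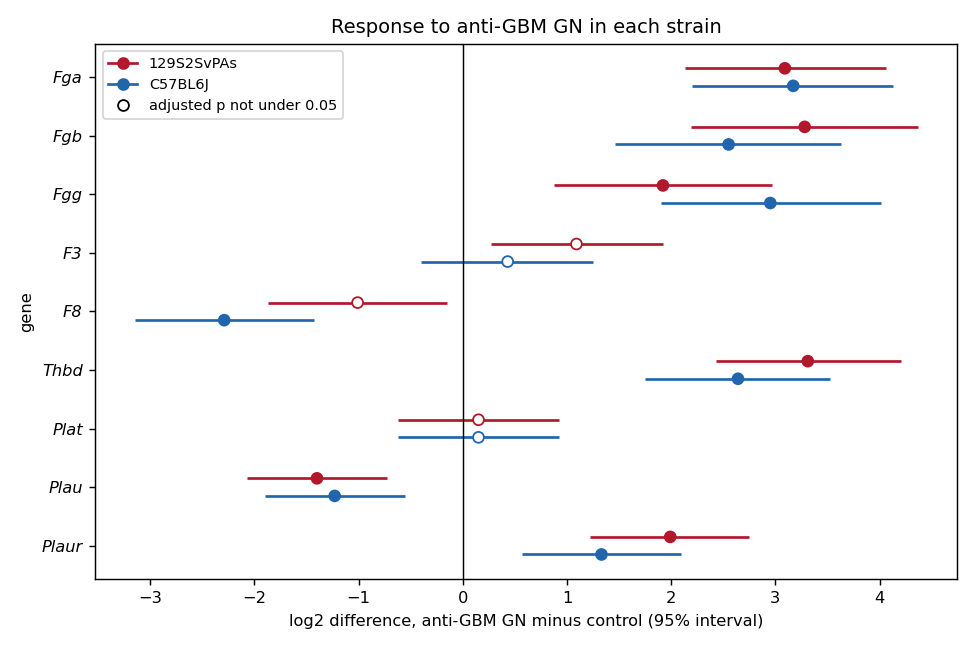
Log2 difference, anti-GBM GN minus control (x axis), of each of the 9 genes (y axis) in 129S2SvPAs and C57BL6J mice, with 95% intervals from limma, 3 mice per group and open points where the adjusted p was not under 0.05. The fibrinogen chains, Thbd and Plaur lie to the right of 0 in both strains and Plau and F8 to the left, and the intervals of the strains overlap for every gene.

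Without the 129S2SvPAs anti-GBM GN array that stood apart, the same 6 genes were called in that strain, with differences of 3.18 for Fga, 3.72 for Fgb, 1.93 for Fgg, 3.59 for Thbd, -1.17 for Plau and 2.17 for Plaur, and limma adjusted p-values from 4e-04 to 0.0332. With the proximal tubule mean added to the fit as a covariate, none of the 9 was called in 129S2SvPAs mice, and 67 of all genes were, against 2424 without it. The differences were then 3.82 (SE 0.91) for Fga, 3.81 (SE 1.05) for Fgb, 2.17 (SE 1.03) for Fgg, 2.84 (SE 0.85) for Thbd, -1.89 (SE 0.63) for Plau and 1.78 (SE 0.74) for Plaur, with adjusted p-values from 0.0965 to 0.397. Each had an SE over 2 times that of the fit without the covariate, in a strain whose tubule marker means do not overlap between treated and control arrays. In C57BL6J mice 5 of the 7 calls passed with this covariate, and Plau (adjusted p = 0.0667) and Plaur (0.151) did not.

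Within groups, several of the genes deviated together from array to array. Over the 12 arrays, deviations from the group mean correlated at r = 0.95 for Fga with Fgg, 0.73 for Fga with Fgb and 0.56 for Fgb with Fgg. All 3 chains were lowest, of their group, on C57BL6J anti-GBM GN replicate 1, at -1.23 for Fga, -0.93 for Fgb and -1.20 for Fgg. Deviations of Plat correlated at 0.99 with Plaur and 0.98 with Thbd, and Thbd with Plaur at 0.94. F8 correlated at 0.85 with Plaur, 0.77 with Plat and 0.66 with Thbd. F3 correlated at 0.66 with Plau. The points share arrays, their RNA and their normalization, and these values are descriptions of 12 arrays.

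Deviations of the mean of 10 endothelial markers correlated at 0.93 with Plaur, 0.90 with Plat, 0.83 with F8 and 0.80 with Thbd, and at -0.07 to -0.23 with the fibrinogen chains, -0.12 with F3 and -0.19 with Plau. The endothelial mean was 8.23, 8.39 and 8.14 in 129S2SvPAs anti-GBM GN against 7.56, 8.45 and 7.08 in 129S2SvPAs controls, and 9.01, 9.20 and 8.56 in C57BL6J anti-GBM GN against 8.46, 9.16 and 8.71 in C57BL6J controls. Groups overlapped within each strain, and 129S2SvPAs control replicate 2 was high for the markers and for F8, Thbd, Plat and Plaur, by 1.12, 0.60, 0.67 and 0.78 above its group. Of the 10 markers 3 rose (Pecam1, Cdh5 and Eng) and 1 fell (Ehd3) in 129S2SvPAs mice, and Ehd3 alone was called in C57BL6J mice, where it fell. Ehd3 differed by -2.56 (limma adjusted p = 0.00117) in 129S2SvPAs and by -1.94 (adjusted p = 0.0138) in C57BL6J mice, and Kdr by -0.92 and -1.05 without passing the test. Pecam1 averaged 9.48 in 129S2SvPAs anti-GBM GN against 6.81 in 129S2SvPAs controls, and 9.71 in C57BL6J anti-GBM GN against 8.30 in C57BL6J controls (adjusted p = 0.0519 in C57BL6J mice).

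With the endothelial mean as a covariate, a fit added after these values were seen, 7 of the 9 genes were called in each strain. Thbd then rose by 2.74 (SE 0.30, limma adjusted p = 0.000364) in 129S2SvPAs and by 2.49 (SE 0.26, adjusted p = 0.000348) in C57BL6J mice. Plaur rose by 1.41 (SE 0.18, adjusted p = 0.000729) in 129S2SvPAs and by 1.18 (SE 0.15, adjusted p = 0.00131) in C57BL6J mice. The F8 difference was -1.59 (SE 0.27, adjusted p = 0.00415) in 129S2SvPAs and -2.44 (SE 0.24, adjusted p = 0.000235) in C57BL6J mice, so it passed in both. The difference of F8 between control strains was -0.34 (adjusted p = 0.83) in this fit, and Fgg differed by -2.08 (adjusted p = 0.1) between strains among mice with anti-GBM GN.

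**Figure D3:**
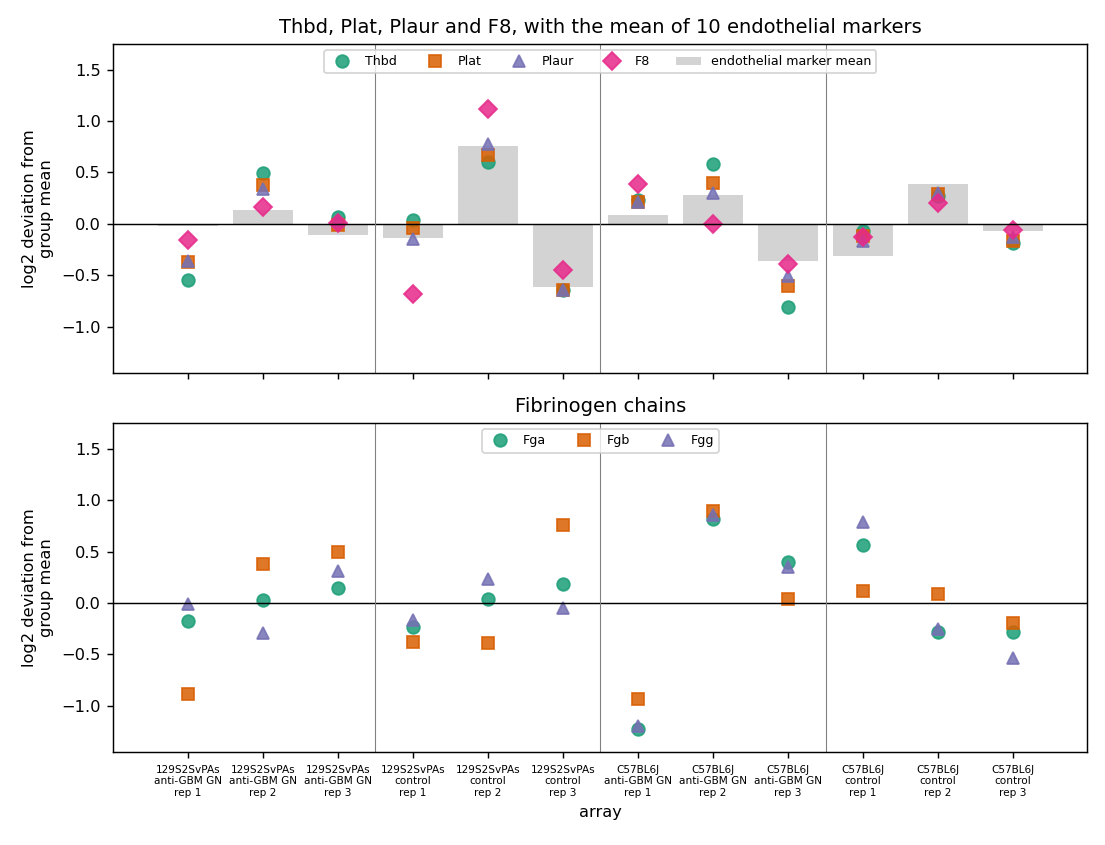
Deviation of each array from its group mean on the log2 scale (y axis) for the 12 arrays (x axis), with Thbd, Plat, Plaur and F8 as points over bars for the mean of 10 endothelial markers in the upper panel, and the 3 fibrinogen chains in the lower panel. The 3 chains are lowest together on C57BL6J anti-GBM GN replicate 1, and Thbd, Plat, Plaur and F8 are high together with the endothelial mean on 129S2SvPAs control replicate 2.

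Other genes of the pathway were taken from lists of procoagulant factors, anticoagulants, thrombin receptors and fibrinolysis genes. Of 36 listed, 31 had a named probe set and 20 were tested, and the other 11 were at or near the floor of the table, 10 of them at or below its median on all 12 arrays. Among these 10 were F2 (prothrombin), F7, F9, F11, F12 and Plg (plasminogen). Other genes of the same lists exceeded the median on all 12 arrays. Kng1 read 9.14 to 10.79, F13b 9.32 to 10.76, Proc 8.14 to 9.1 and Serpinf2 7.5 to 9.65. With anti-GBM GN, 5 of the 20 rose and 4 fell in 129S2SvPAs mice, and 5 rose and none fell in C57BL6J mice by limma at an adjusted p under 0.05 (2 were lower there at an unadjusted p under 0.05). Of all genes tested, 10.6% rose and 9.77% fell in 129S2SvPAs mice, and 4.78% rose and 2.31% fell in C57BL6J mice. The median difference of the 20 was 0.01 in 129S2SvPAs and 0.06 in C57BL6J mice.

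The thrombin receptor F2r (PAR1) rose in both strains, and F2rl3 (PAR4) was called higher in both, with the limit given below. F2r averaged 11.98 in 129S2SvPAs anti-GBM GN against 9.23 in 129S2SvPAs controls, and 12.33 in C57BL6J anti-GBM GN against 10.70 in C57BL6J controls. Its rise was 2.75 (SE 0.23, limma adjusted p = 3.8e-05) in 129S2SvPAs and 1.63 (SE 0.23, adjusted p = 0.00195) in C57BL6J mice. F2rl3 rose by 1.46 (adjusted p = 0.0313) in 129S2SvPAs and by 1.81 (adjusted p = 0.0264) in C57BL6J mice. It exceeded the table median on 7 arrays, mainly treated ones, with control means of 2.58 in 129S2SvPAs and 3.01 in C57BL6J mice. F2rl3 was therefore tested only through the groups where it is high. Its calls, counted among the 5 rises in each strain, are not separate support. With no filter neither F2rl3 call passed (adjusted p = 0.0751 in 129S2SvPAs and 0.0694 in C57BL6J mice). The 129S2SvPAs call was also lost with only the groups compared (0.108) and with the endothelial covariate (0.108). Procr, the endothelial protein C receptor, which presents protein C to the thrombin bound by Thbd, rose by 1.76 (adjusted p = 0.0179) and 1.69 (adjusted p = 0.0462) in the same strains. With only the groups compared neither Procr call passed (limma adjusted p = 0.0509 in 129S2SvPAs and 0.0529 in C57BL6J mice). With no filter the C57BL6J call was lost (0.111).

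Anxa2 and S100a10, which form a cell-surface complex that binds plasminogen and Plat, also rose in both. Anxa2 averaged 12.02 in 129S2SvPAs anti-GBM GN against 9.22 in 129S2SvPAs controls, and 12.05 in C57BL6J anti-GBM GN against 10.22 in C57BL6J controls. The difference was 2.80 (SE 0.23, limma adjusted p = 3.5e-05) in 129S2SvPAs and 1.83 (adjusted p = 0.000935) in C57BL6J mice. With the mean of all its probe sets it was smaller, at 1.04 in 129S2SvPAs and 0.79 in C57BL6J mice, and passed in both (adjusted p = 0.00032 and 0.00366). S100a10 rose by 1.56 (SE 0.16, adjusted p = 0.000121) in 129S2SvPAs and 1.22 (adjusted p = 0.00119) in C57BL6J mice. The rises of F2r, Anxa2 and S100a10 passed in both strains whichever single array was left out. Those of F2rl3 and Procr did not: the F2rl3 call was lost without any of 4 arrays in 129S2SvPAs and of 5 in C57BL6J mice (adjusted p up to 0.121), and the Procr call without any of 4 and 7 arrays (adjusted p up to 0.194). With the tubule covariate none of the 9 pathway calls in 129S2SvPAs mice passed (adjusted p 0.0567 to 0.786), and in C57BL6J mice 3 of 5 did.

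In 129S2SvPAs mice 4 genes fell. Proz, protein Z, a cofactor for inhibition of factor Xa, differed by -2.43 (SE 0.27, limma adjusted p = 0.000153) there and by -0.23 (adjusted p = 0.701) in C57BL6J mice. F13b, the carrier subunit of the fibrin-crosslinking factor XIII, differed by -1.04 (SE 0.15, adjusted p = 0.000822) and in C57BL6J mice by -0.31 (adjusted p = 0.268). Tfpi, the inhibitor of tissue factor, differed by -0.66 (SE 0.17, adjusted p = 0.0209) and in C57BL6J mice by 0.05. Proc, protein C, differed by -0.50 in each strain, with an adjusted p of 0.0449 in 129S2SvPAs and 0.0866 in C57BL6J mice, and its call was lost without any of 8 arrays (adjusted p up to 0.157). The Tfpi call was lost without any of 4 arrays (adjusted p up to 0.0651) and with the mean of its probe sets (-0.37, adjusted p = 0.318), and those of Proz and F13b passed without each array. The difference of responses was called for Proz alone among the 20, against 0.562% of all genes tested. The Proz call was lost without any of 10 of the 12 arrays (adjusted p up to 0.105), with no filter (0.079) or with the tubule (0.375) or endothelial covariate (0.0747).

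Between strains, 2 of the 20 were higher and 2 lower in 129S2SvPAs than in C57BL6J mice with anti-GBM GN, and 2 were higher and 3 lower among controls. Of all genes tested, 3.49% were higher and 4.89% lower with anti-GBM GN, and 3.32% were higher and 5.11% lower among controls. Procr was higher in 129S2SvPAs by 2.05 (limma adjusted p = 0.0172) with anti-GBM GN and by 1.98 (adjusted p = 0.021) in controls. F5, coagulation factor V, was lower by a difference of -1.31 (adjusted p = 0.00182) with anti-GBM GN and -1.00 (adjusted p = 0.0095) in controls. Serpinf2, the plasmin inhibitor, was higher by 1.26 (adjusted p = 0.0263) with anti-GBM GN, and F13b differed by -0.63 (adjusted p = 0.0269). In controls F2r differed by -1.47 (adjusted p = 0.00301), Anxa2 by -1.00 (adjusted p = 0.0248) and Proz by 2.11 (adjusted p = 0.000668). The calls of F5, F2r and Proz passed without each array, while each of the others was lost without any of 3 or 4 arrays (adjusted p up to 0.107). With the mean of all probe sets the Anxa2 difference was -0.30 (adjusted p = 0.184) and that of F5 with anti-GBM GN was -2.18. With the endothelial covariate F2r (-0.80, adjusted p = 0.118) and Anxa2 (-0.27, adjusted p = 0.672) did not pass between controls, nor did F13b and Serpinf2 with anti-GBM GN. With the tubule covariate F5 (adjusted p = 0.0696), F13b (0.234) and Procr (0.251) did not pass with anti-GBM GN, while the control calls did. With no filter Serpinf2 (0.0646) with anti-GBM GN and Procr (0.0561) and Anxa2 (0.0553) among controls were lost. With only the groups compared, F13b (0.0941) and Serpinf2 (0.0892) with anti-GBM GN and Procr (0.0797) and Anxa2 (0.0916) among controls were lost.

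**Figure D4:**
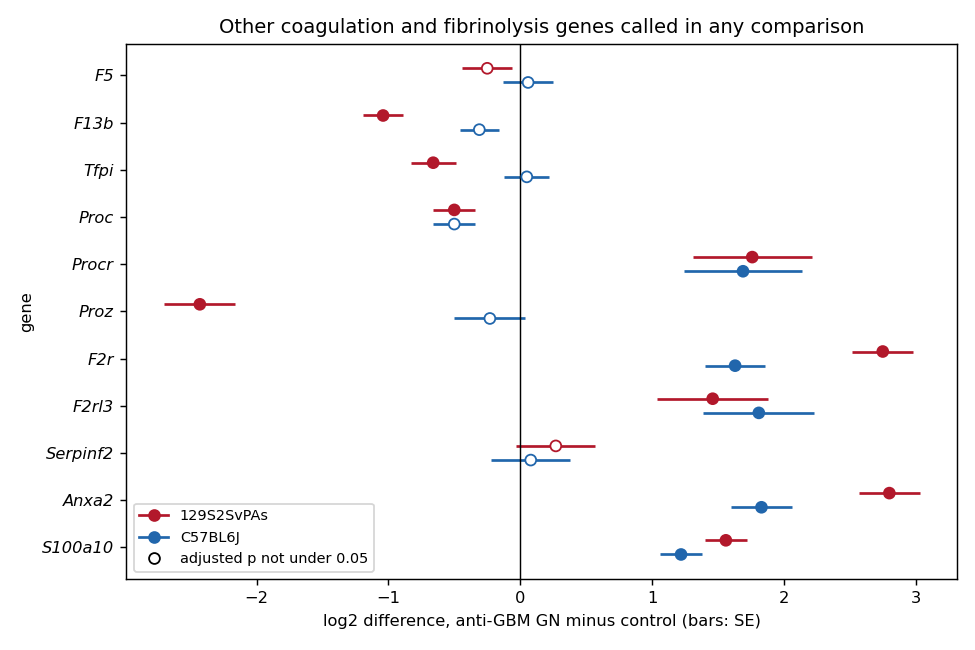
Log2 difference, anti-GBM GN minus control (x axis, bars give the SE), of the 11 other pathway genes (y axis) called in any of the 5 comparisons, in 129S2SvPAs and C57BL6J mice, with open points where the adjusted p was not under 0.05. F2r, F2rl3, Procr, Anxa2 and S100a10 lie right of 0 in both strains, and Proz lies at -2.43 in 129S2SvPAs against -0.23 in C57BL6J mice.

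Genes whose profile over all 12 arrays was most like a member's were ranked by Pearson r among all tested genes. These profiles share arrays and the difference between treated and control mice, so r describes likeness and not more. Thbd was most like Fxyd5 (r = 0.993), Jam2 (0.992) and Anxa1 (0.989), and Plaur most like Dpysl3 (0.99), Fxyd5 (0.986) and Rras (0.985). Plat was most like Gimap1 (0.973), Gimap4 (0.959) and Kctd12b (0.955), and F8 most like Astn1 (0.949), Rasgrf2 (0.935) and Lifr (0.934). The mean of the fibrinogen chains was most like Gask1b (0.962), Nrarp (0.954) and Ehbp1l1 (0.95). For Fga the nearest were N4bp3 (0.966), Stx11 (0.96) and Dusp8 (0.959), for Fgb Fabp4 (0.95), Gask1b (0.948) and Nrarp (0.947), and for Fgg Rrad (0.964), Plk4 (0.939) and Ddx58 (0.937). For F3 they were Tmem248 (0.909), Sptlc2 (0.886) and Sqle (0.874), and for Plau Rab24 (0.975), Smim19 (0.963) and Ergic3 (0.961).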

How the data were processed

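RNA of isolated glomeruli from 12 mice was hybridised to Affymetrix arrays, 1 per mouse, per the labels' protocols. The deposited table holds log2 signals per probe set. Per the submitters' processing notes the authors used MAS5 and GCRMA, with no version, and which of these made the values is not given. The 9 genes, the lists and the tests were chosen with earlier results of these data known. Of 45037 probe sets, 34945 had 1 gene symbol in the platform annotation, 932 had several and 9160 none, and 34741 were matched by Entrez identifier to the RefSeq gene table with no symbol changed. A gene was tested where its brightest probe set exceeded the table median (3.03) on at least 3 arrays. Named genes were the 9, pathway genes called in any comparison, the 3 most alike profiles per gene and fixed markers.

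In R 4.3.3 with limma 3.58.1, a mean for each group was fitted on the 12 arrays together, contrasts were moderated by empirical Bayes and p-values were Benjamini-Hochberg adjusted over 11920 genes. The fit was tested on simulated data. Only 3 arrays per group limit the precision, and p-values measure the spread between mice. Deviations of same-numbered replicates correlated at 0.208, 0.241 and 0.33 between C57BL6J anti-GBM GN and control. Between the control strains they correlated at 0.244, 0.284 and 0.239. The values were -0.157, 0.183 and 0.002 for 129S2SvPAs anti-GBM GN and control, and -0.38, 0.121 and -0.234 between the anti-GBM GN strains. Arrays of different numbers reached 0.356 (C57BL6J control replicate 3 with 129S2SvPAs anti-GBM GN replicate 1). Whether the numbers pair mice is therefore not known, and the main fit used no pairing. Alternatives were quantile normalization, a shift to one median, no or a stricter filter, the mean of probe sets, a trended prior, array weights, only the groups compared, the replicate block, a tubule or endothelial covariate and leaving out each array.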

Additional observations from a re-analysis of the deposited data

Results flagged for a closer look

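Proz, protein Z, was called for a difference of responses between the strains in the main fit. Its difference of responses, 129S2SvPAs minus C57BL6J, was -2.20 (SE 0.38, limma adjusted p = 0.0366), with group means of 3.51 ± 0.60 in 129S2SvPAs anti-GBM GN, 5.94 ± 0.36 in 129S2SvPAs controls, 3.60 ± 0.04 in C57BL6J anti-GBM GN and 3.83 ± 0.18 in C57BL6J controls (SD, n = 3 each). Apart from that of the 129S2SvPAs controls, these means lie near the table median of 3.03, where a fall can be understated. The difference of responses stayed negative when each array was left out, at -2.44 to -1.86. It was not called without any of 10 of the 12 arrays, among them C57BL6J control replicate 2 (adjusted p = 0.105). It was also not called with no filter (adjusted p = 0.079), with the tubule covariate (-1.89, adjusted p = 0.375) or with the endothelial covariate (-2.09, adjusted p = 0.0747), and was not among the genes tested under the stricter filter.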

How the results depend on the processing

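The fibrinogen, Thbd and Plaur rises and the Plau and F8 falls kept their sign under every alternative run, and calls changed as follows. Of the members, 6 were called in 129S2SvPAs and 7 in C57BL6J mice; leaving out each array gave 5 to 7 in each strain, and 0 for the difference of responses. In 129S2SvPAs mice it was 8 with array weights (F3 and F8 added) and 7 with the stricter filter (F3 added), and in C57BL6J mice 5 with no filter and 6 with the mean of probe sets or only the groups compared. The tubule covariate left 0 called in 129S2SvPAs mice, where the tubule means of the groups do not overlap. Among mice with anti-GBM GN, 1 member differed between strains, 0 with no filter, with only the groups compared and with the tubule or the endothelial covariate, 3 with array weights and 0 to 2 without an array. Among controls it was 1, against 0 with no filter, only the groups compared or either covariate, 2 with the stricter filter, array weights or the replicate block, and 0 to 2 without an array. The block changed no other member call. The cause of these changes was not tested.

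Values not called in the main comparisons changed sign as follows. With the mean of probe sets Plat was -0.30 in C57BL6J, -0.37 in 129S2SvPAs mice and -0.07 for the difference of responses, and Plau was 0.02 for that difference. With the tubule covariate Plat was -0.19 in 129S2SvPAs mice and -0.23 for the difference of responses, Fga was 0.42 for that difference and 0.11 between strains with anti-GBM GN, and Plaur was -0.06 there. With the endothelial covariate the difference of responses was 0.03 for Fga and -0.41 for Plat, Plat in 129S2SvPAs mice was -0.41, F8 and Thbd were 0.51 and 0.29 between strains with anti-GBM GN, and F3, Thbd, Plat and Plaur were -0.07, 0.04, 0.37 and 0.52 between controls. The Plat difference of responses was -0.01 with quantile normalization and -0.05 with array weights. Without single arrays, Plat ranged from -0.05 to 0.45 in C57BL6J, from -0.16 to 0.49 in 129S2SvPAs mice and from -0.31 to 0.34 for the difference of responses, where Fga ranged from -0.69 to 0.34 and Plau from -0.52 to 0.06. Between strains Fga ranged from -0.91 to 0.12 and Plaur from -0.20 to 0.23 with anti-GBM GN, and Fga from -0.36 to 0.06 and F3 from -0.25 to 0.44 in controls.

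Over all genes, 2424 were called in 129S2SvPAs mice, against 3827 with array weights, 1415 with only the groups compared and 67 with the tubule covariate. In C57BL6J mice 845 were called, against 2022 with array weights and 468 with the tubule covariate, and 512, 407, 482 and 495 without C57BL6J anti-GBM GN replicate 1 or 2 or control replicate 1 or 3, in that order. The difference of responses gave 67, against 18 with the stricter filter, 286 with array weights, 33 with the replicate block, 6 with the tubule covariate, 32 with the endothelial covariate, and 15 to 136 without an array. Between strains with anti-GBM GN, 999 were called, against 2256 with array weights, 578 with only the groups compared, 342 with the tubule and 485 with the endothelial covariate, and 612 and 620 without C57BL6J anti-GBM GN replicate 1 and 2. Between controls 1005 were called, against 1601 with array weights, 253 with the endothelial covariate and 503 without C57BL6J control replicate 2.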
